A study of Mus musculus with 2 samples.

Results

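A set of 8 target genes of the transcription factor p53 was followed across single cells of mouse glioma, in relation to the level of Cdkn1a, which encodes the cyclin-dependent kinase inhibitor p21 and is itself a p53 target. The 8 genes, Ccng1, Mdm2, Bax, Phlda3, Ei24, Eda2r, Trp53inp1 and Zmat3, were chosen by name as known p53 targets. They and the gene lists used below were chosen with earlier results of these data known. All 8 are listed in both count tables, which together list 18366 genes. The tumours had been induced in C57BL/6 mice by transferring PDGFB, a ligand of the receptor Pdgfra, into the ventricle of the embryonic forebrain, and were collected about 40 days after birth, when cells carrying GFP were sorted. All cells therefore share the same driver, strain and age. The samples form a single group of 2 libraries (pool 1, pool 2), each made from the cells of 2 tumours mixed before droplet capture, and no control group. Cells were not assigned to a tumour, and the titles of both libraries share a number for which no meaning is given. Xist is listed in pool 1 and not in pool 2, and 4 of 4 Y-linked genes looked for are listed in pool 2 and not in pool 1, and the deposited tables are named for different days, which the labels do not explain, so that sex, day and pool cannot be told apart. The filter kept barcodes with 500 or more genes and no more than 15% mitochondrial counts, 3506 in pool 1 and 3278 in pool 2, with medians of 7440 and 11272 unique molecular identifiers (UMIs, counts of captured RNA molecules) per cell. 4 cell barcodes occurred in both pools.

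p53 is kept low in unstressed cells by Mdm2, a ubiquitin ligase that marks it for degradation, and is released from this control by DNA damage, oncogene signalling and other stress. Stabilised p53 binds its response elements and raises genes that halt the cell cycle, trigger apoptosis, repair DNA or damp p53 itself. In mouse glioma models p53 is a barrier to tumour growth, and Cdkn2a, whose alternative product p19Arf inhibits Mdm2, stands upstream of it. Of the genes followed here, Mdm2 and Ccng1 (cyclin G1, a partner of protein phosphatase 2A that acts on Mdm2) belong to the feedback on p53. Bax, a pore-forming protein of the mitochondrial outer membrane, Ei24, a membrane protein of the endoplasmic reticulum, Trp53inp1, a cofactor that favours p53 phosphorylation, and Eda2r, a receptor of the tumour necrosis factor receptor family, have roles linked to cell death. Phlda3, a pleckstrin homology protein, competes with Akt for membrane lipids, and Zmat3 is a zinc finger protein that binds RNA.

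p53 response elements consist of 2 copies of a decamer, the p53 half-site, and the promoter windows that hold a match are shown as the sequence in which such elements were looked for. The windows run from 250 bases before to 50 bases after the annotated start (RefSeq, GRCm38.p6), and 6 of the 8 members had one. Exact matches to the decamer, which reads the same way on both strands and was searched on both, were found in 4 of those 6 windows, and in 8.36% of all 32851 windows and 9.55% of 27025 genes. The window of the upstream Cdkn1a start held 2 matches 12 bases apart, 73 and 51 bases before the start. 2 matches at most 13 bases apart were found in 0.0731% of all windows. The single matches began 185 bases before the start of Ccng1, 186 before that of Mdm2, 201 before that of Bax and 10 before that of Ei24. Each window is written 5′ to 3′ on the strand of its gene, with the matches in capitals.
Cdkn1a, chr17:29090729-29091028, plus strand: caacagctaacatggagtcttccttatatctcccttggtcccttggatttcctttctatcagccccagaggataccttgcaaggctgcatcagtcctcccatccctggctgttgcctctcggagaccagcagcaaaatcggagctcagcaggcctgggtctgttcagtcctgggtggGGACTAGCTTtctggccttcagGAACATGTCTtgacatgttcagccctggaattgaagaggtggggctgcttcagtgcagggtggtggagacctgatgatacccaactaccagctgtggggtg
Ccng1, chr11:40755237-40755536, minus strand: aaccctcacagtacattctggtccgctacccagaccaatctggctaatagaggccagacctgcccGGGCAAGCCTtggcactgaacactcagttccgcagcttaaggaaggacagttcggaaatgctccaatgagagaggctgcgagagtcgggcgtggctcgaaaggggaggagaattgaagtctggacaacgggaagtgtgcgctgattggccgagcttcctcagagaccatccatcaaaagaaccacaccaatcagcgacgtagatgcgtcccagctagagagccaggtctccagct
Mdm2, chr10:117710709-117711008, minus strand: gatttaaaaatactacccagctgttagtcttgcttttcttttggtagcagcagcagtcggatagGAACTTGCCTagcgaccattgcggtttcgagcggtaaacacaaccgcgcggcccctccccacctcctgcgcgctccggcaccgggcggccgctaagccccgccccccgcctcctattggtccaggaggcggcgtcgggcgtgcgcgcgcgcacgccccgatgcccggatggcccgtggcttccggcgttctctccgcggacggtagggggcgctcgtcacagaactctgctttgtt
Bax, chr7:45466849-45467148, minus strand: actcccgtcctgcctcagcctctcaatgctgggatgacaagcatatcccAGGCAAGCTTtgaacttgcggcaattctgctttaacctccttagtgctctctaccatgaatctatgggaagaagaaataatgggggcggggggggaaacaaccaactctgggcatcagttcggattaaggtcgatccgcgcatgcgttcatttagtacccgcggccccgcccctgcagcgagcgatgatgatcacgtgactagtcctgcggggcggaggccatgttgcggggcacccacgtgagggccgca
Ei24, chr9:36797285-36797584, minus strand: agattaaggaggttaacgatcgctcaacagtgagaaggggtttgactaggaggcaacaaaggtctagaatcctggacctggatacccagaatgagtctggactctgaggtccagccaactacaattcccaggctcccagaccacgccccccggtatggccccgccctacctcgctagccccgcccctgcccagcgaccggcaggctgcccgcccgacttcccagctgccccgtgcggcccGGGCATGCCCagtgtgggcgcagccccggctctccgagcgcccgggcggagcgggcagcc
A match says only that these letters are present. No match was found in the windows of Phlda3 and Eda2r, which says only that these letters are not in these windows. In the GRCm38 annotation (GENCODE vM21), 7 of the 8 genes lie on different autosomes, with Ccng1 on chromosome 11, Mdm2 on 10, Bax on 7, Phlda3 on 1, Ei24 on 9, Trp53inp1 on 4 and Zmat3 on 3, and Eda2r lies on the X chromosome. Bax overlaps the gene model Gm45808 on its own strand and Ei24 overlaps the antisense model Gm26787, neither of which is listed in the tables.

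Over all kept cells the 8 members summed to 999.4 CPM (UMIs of a gene per 1000000 UMIs) in pool 1 and 870.3 CPM in pool 2. Bax (363.9 and 357.0 CPM in pools 1 and 2) and Phlda3 (199.1 and 175.9 CPM) weighed most in these sums. All 8 were higher in pool 1, with the largest ratio for Trp53inp1, at 80.9 and 54.2 CPM in pools 1 and 2, and the smallest for Bax, at 363.9 and 357.0 CPM. Cdkn1a lay the other way, at 140.6 CPM in pool 1 and 183.5 CPM in pool 2. With 1 library on each side these differences between pools have no test.

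Cells were sorted into classes by their Cdkn1a level after a random draw of 3000 UMIs from each cell, so that depth did not set the class. Cells with 0 Cdkn1a UMIs in the draw (2090 in pool 1, 1887 in pool 2) are called Cdkn1a-none, those with 1 (456 and 447) Cdkn1a-middle, and those with 2 or more (196 and 286) Cdkn1a-high, and 764 and 658 shallower cells were left out. The members were then read in all UMIs of these cells, summed by pool and class. Cdkn1a itself, which set the classes, was at 534.1 CPM in Cdkn1a-high and 62.2 CPM in Cdkn1a-none cells of pool 1, and at 642.8 and 80.9 CPM in those of pool 2. Differences between classes were tested with edgeR's quasi-likelihood test with the pool as a block, and adjusted p-values are Benjamini-Hochberg values over the 12958 genes tested. With 6 sums and 2 residual degrees of freedom, edgeR moderates the variance of each gene toward that of other genes. The p-values therefore set class differences against variation between the 2 pools, estimated partly from other genes. They do not measure the spread between tumours.

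Other features moved with the class, and their part in the results was not tested except where stated. Median depth was 13288 UMIs in Cdkn1a-high and 9340.5 in Cdkn1a-none cells of pool 1, and 15612 and 12648 in those of pool 2. Cycling cells, with UMIs of at least 2 of 10 core cycling genes, made up 39.3% of Cdkn1a-high and 21.1% of Cdkn1a-none cells in pool 1, but 16.8% and 16.2% in pool 2. The nuclear RNA Malat1 was at 35530 CPM in Cdkn1a-high and 46760 CPM in Cdkn1a-none cells of pool 1, and at 34640 and 42170 CPM in those of pool 2. The 8 oligodendrocyte precursor markers, all detected, summed to 8222 CPM in Cdkn1a-high and 10260 CPM in Cdkn1a-none cells of pool 1, and to 7791 and 9748 CPM in those of pool 2. The 8 microglia markers summed to 4.48 CPM in Cdkn1a-high and 73.4 CPM in Cdkn1a-none cells of pool 1, with Csf1r and Cx3cr1 at 0 in the Cdkn1a-high cells, and to 1.22 and 147.5 CPM in those of pool 2, with C1qa, Tyrobp and Cx3cr1 at 0 in the Cdkn1a-high cells. The 8 oligodendrocyte markers went opposite ways in the pools, summing to 207.9 CPM in Cdkn1a-high and 1103 CPM in Cdkn1a-none cells of pool 1, and to 3560 and 793.0 CPM in those of pool 2. Of the erythroid markers 2 of 6 are listed in both tables, and they had 614 UMIs (124.5 CPM) in Cdkn1a-high and 3 UMIs in Cdkn1a-none cells of pool 2, and 2 and 6 UMIs in those of pool 1. By edgeR, 8 of 8 microglia markers and 5 of 8 precursor markers fell in Cdkn1a-high cells, where 4.31% of the 12958 genes tested fell.

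The feedback genes differed from each other. Ccng1 was at 57.1, 83.3 and 106.9 CPM in Cdkn1a-none, -middle and -high cells of pool 1, and at 41.9, 54.0 and 75.2 CPM in those of pool 2. Both pools showed the same order of classes, and in each the counting intervals of the high and none classes were apart. Ccng1 was 1.93-fold higher in Cdkn1a-high than in Cdkn1a-none cells (log2 0.95 ± 0.08 SE, adjusted p = 0.00084, higher in 2 of 2 pools). Mdm2 was at 44.8, 42.9 and 63.4 CPM in the 3 classes of pool 1, and at 41.9, 45.1 and 47.9 CPM in those of pool 2. The high class exceeded the none class by a log2 of 0.58 in pool 1 and 0.24 in pool 2, a difference between pools that was not tested. In the draws of equal depth Mdm2 was at 69.7 CPM in Cdkn1a-high and 48.6 CPM in Cdkn1a-none cells of pool 1, and at 59.4 and 43.6 CPM in those of pool 2. Over both pools the log2 was 0.41 ± 0.12 SE, which did not pass the test (adjusted p = 0.0587 by edgeR).

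**Figure D1:**
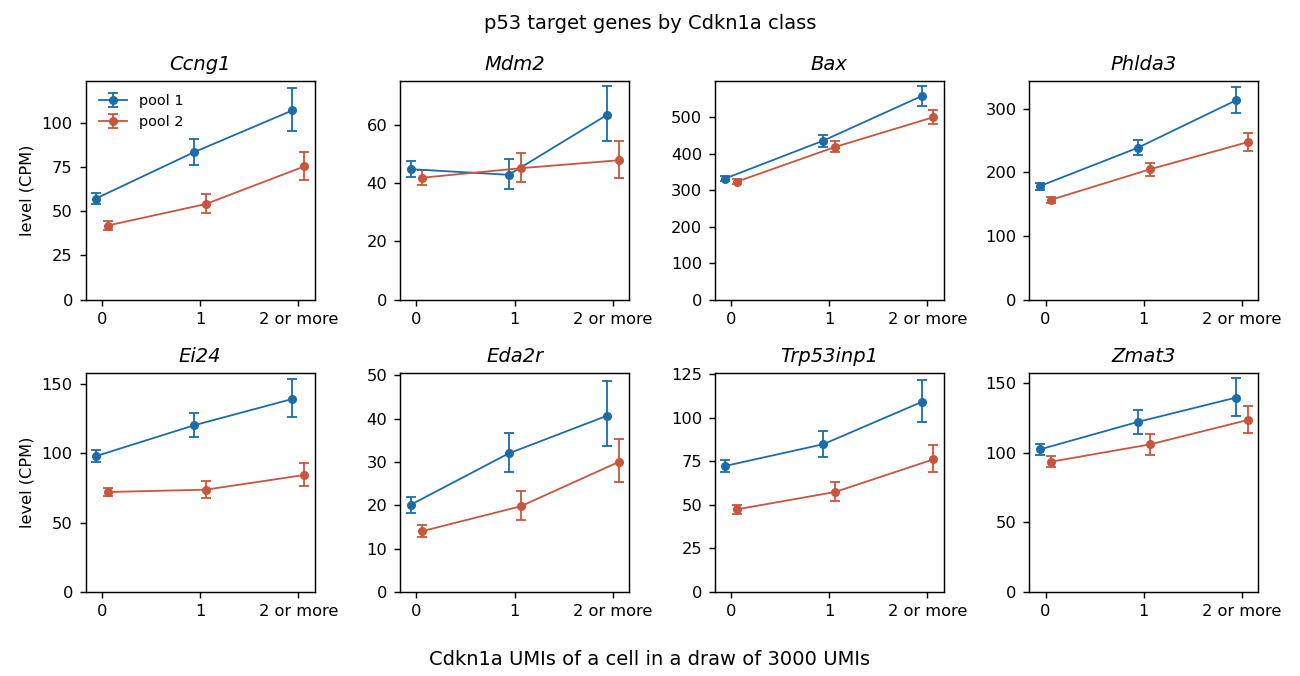
Level of each of the 8 p53 target genes, in CPM of summed UMIs, in cells with 0, 1 and 2 or more Cdkn1a UMIs in a draw of 3000, with pool 1 in blue and pool 2 in red and bars for exact Poisson 95% intervals, which cover counting error only. In 7 of the 8 panels the points of both pools are higher at each step, while Mdm2 of pool 1 is at 44.8, 42.9 and 63.4 CPM in the 3 classes.

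The genes linked to cell death rose with Cdkn1a by different amounts. Bax was at 331.5, 435.3 and 557.2 CPM in Cdkn1a-none, -middle and -high cells of pool 1, and at 323.0, 418.0 and 499.4 CPM in those of pool 2, 1.7-fold higher in the high than in the none class (log2 0.76 ± 0.07 SE, edgeR adjusted p = 0.00084). Eda2r was at 20.1, 32.0 and 40.7 CPM in pool 1 and at 14.03, 19.8 and 30.02 CPM in pool 2. Its difference was the largest among the 8 members, 2.19-fold (log2 1.13 ± 0.12 SE, edgeR adjusted p = 0.00186), and it rested on 118 and 148 UMIs in Cdkn1a-high cells and on 457 and 380 in Cdkn1a-none cells. Trp53inp1 was at 72.3, 84.8 and 109.0 CPM in the 3 classes of pool 1 and at 47.4, 57.4 and 76.1 CPM in those of pool 2. The high class exceeded the none class by about the same ratio in each pool, 0.67 and 0.73 on the log2 scale, and by 0.71 ± 0.07 SE over both (edgeR adjusted p = 0.0016). Ei24 was at 98.0, 120.3 and 139.3 CPM in pool 1 and at 72.1, 73.8 and 84.4 CPM in pool 2. Its difference passed the test (log2 0.44 ± 0.09 SE, edgeR adjusted p = 0.0195) and was 0.58 in pool 1 and 0.27 in pool 2.

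Phlda3, the Akt competitor, was at 178.4, 238.8 and 313.4 CPM in Cdkn1a-none, -middle and -high cells of pool 1, and at 157.2, 204.8 and 247.7 CPM in those of pool 2. It rose 1.75-fold in the high against the none class (log2 0.81 ± 0.07 SE, edgeR adjusted p = 0.00084). Zmat3, the RNA-binding protein, was at 102.3, 122.1 and 139.6 CPM in the 3 classes of pool 1 and at 93.5, 105.9 and 123.5 CPM in those of pool 2. Its rise was smaller, 1.41-fold (log2 0.50 ± 0.07 SE, edgeR adjusted p = 0.00444), with log2 values of 0.53 and 0.44 in the 2 pools.

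In all, 7 of the 8 members passed the test as higher in Cdkn1a-high cells and 0 as lower, where 5.91% of the 12958 genes tested passed as higher and 4.31% as lower. The median log2 of the members was 0.74, and that of all genes tested was 0. All 8 passed the filter on low counts, and they were chosen with earlier results of these data known. Summed, the members were at 1470 CPM in Cdkn1a-high and 904.6 CPM in Cdkn1a-none cells of pool 1, and at 1184 and 791.0 CPM in those of pool 2. In the draws of 3000 UMIs, where depth was equal, a Cdkn1a-high cell held on average 4.6 UMIs of the members and a Cdkn1a-none cell 2.62 in pool 1, and 3.6 and 2.38 in pool 2. The 7 calls rest on the pool block: without it 0 of 8 members passed. With another random draw 6 members passed, while 234 genes passed as higher and 261 as lower, and with classes at 2000 UMIs, where the high class begins at 1 UMI, 5 members and 74 and 70 genes did. Ei24 missed the threshold (edgeR adjusted p) in both, at 0.0717 and 0.279, in drawn counts (0.101) and without cluster 2 (0.0637, chosen after seeing the data), and Zmat3 at 2000 UMIs (0.0858). Scaled by library size alone, 531 genes passed as higher and 871 as lower, with the same number of members, 7.

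**Figure D2:**
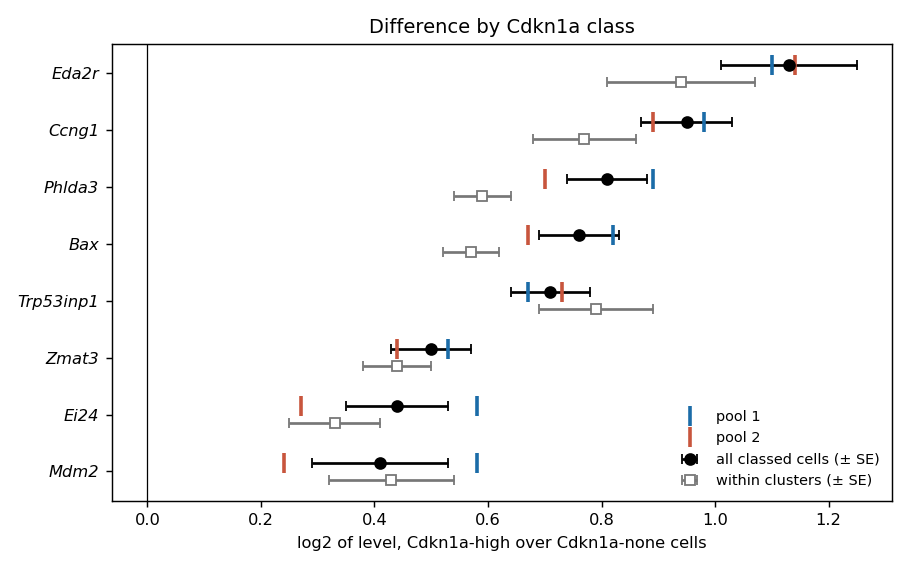
Log2 of the level in Cdkn1a-high over that in Cdkn1a-none cells for the 8 p53 target genes, with filled circles for all classed cells and open squares for the comparison within clusters (both ± SE), and with vertical marks for pool 1 (blue) and pool 2 (red). All values lie above 0, from 0.41 for Mdm2 to 1.13 for Eda2r over all classed cells.

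Cells with a single Cdkn1a UMI lay between. Against Cdkn1a-none cells, Cdkn1a-middle cells had log2 differences from 0.06 ± 0.11 SE for Mdm2 to 0.62 ± 0.12 SE for Eda2r. Ccng1 (log2 0.49 ± 0.08 SE, edgeR adjusted p = 0.0356), Bax (0.41 ± 0.07 SE, 0.035) and Phlda3 (0.43 ± 0.07 SE, 0.0356) passed the test, so that 3 of 8 members were called higher where 0.332% of all genes tested were called higher and 0.247% lower. Eda2r missed the threshold with the larger difference (adjusted p = 0.0696 by edgeR). Beyond 1 UMI the summed level went on upward in steps. In cells with 0, 1, 2, 3 and at least 4 Cdkn1a UMIs in the draw, the members summed to 904.6, 1159, 1431, 1476 and 1625 CPM in pool 1 and to 791.0, 978.9, 1090, 1335 and 1338 CPM in pool 2. The last class holds only 27 cells in pool 1 and 46 in pool 2, and the single members are not ordered throughout. Bax in pool 1 was at 558.2, 551.2 and 563.0 CPM in cells with 2, 3 and at least 4 Cdkn1a UMIs, without a further step. These steps are a description and were not tested.

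**Figure D3:**
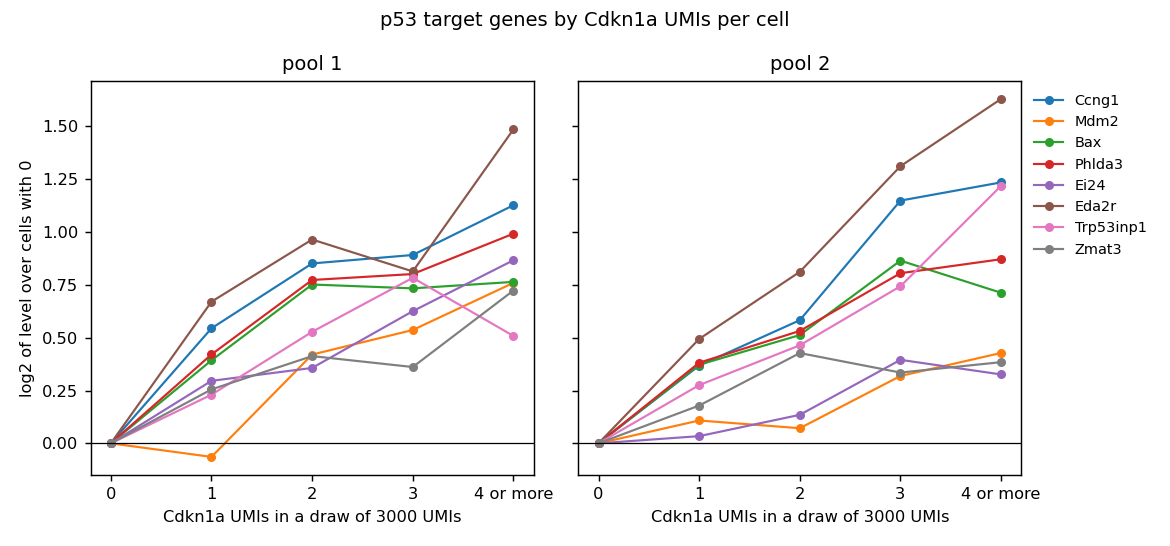
Log2 of the level of each of the 8 p53 target genes over its level in cells with 0 Cdkn1a UMIs, by the number of Cdkn1a UMIs in a draw of 3000 (0 to 4 or more), for pool 1 (left) and pool 2 (right). Eda2r and Ccng1 climb highest in both pools, and Mdm2 of pool 1 dips below 0 at 1 Cdkn1a UMI.

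The classes held different mixes of cells. Cluster 2, led by Hba-a1, Vgf, Hmga2, S100a10 and Vegfa, made up 29.6% of Cdkn1a-high and 9.28% of Cdkn1a-none cells in pool 1, and 22.7% and 6.04% in pool 2, while cluster 5, led by Rph3a and Neu4, made up 1.53% and 17.2% in pool 1 and 2.1% and 24.8% in pool 2. The comparison was therefore also made within clusters, over 15 pairs of pool and cluster that held at least 10 cells of both classes. All 8 members passed as higher there, where 3.31% of 8797 genes tested passed as higher and 1.27% as lower, with log2 differences from 0.33 ± 0.08 SE for Ei24 (edgeR adjusted p = 0.00758) to 0.94 ± 0.13 SE for Eda2r (adjusted p = 4.61e-07). Mdm2 passed in this comparison, at 0.43 ± 0.11 SE (edgeR adjusted p = 0.01). The value was below that over all cells for 6 of the 8 members, among them Bax (0.57 ± 0.05 SE) and Phlda3 (0.59 ± 0.05 SE), and above it for Mdm2 and Trp53inp1 (0.79 ± 0.10 SE), which was not tested. The sums of a pool share its tumours, so these p-values count more units than there were tumours. Among cells without a UMI of the cycling genes, all 8 members also passed, where 4.28% of genes tested passed as higher (Mdm2 at 0.52, edgeR adjusted p = 0.0466).

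Of 37 further p53 targets 36 could be tested, and 21 rose in Cdkn1a-high cells, 0 fell and 15 did not pass, where 5.91% of all genes rose. Their median log2 was 0.60, against 0 over all genes. Those of smallest p were Psrc1, a spindle-associated protein (log2 1.41 ± 0.11 SE, edgeR adjusted p = 0.000499), Aen, a nuclease of apoptosis (0.86 ± 0.08 SE, 0.00124), and Ddit4l, an inhibitor of mTOR signalling (1.80 ± 0.24 SE, 0.0043). Among them were also the apoptosis inducers Pmaip1 (2.37) and Bbc3 (0.82), the stress cytokine Gdf15 (2.37), Sesn2 (0.98), the peptide transporter Tap1 (1.37), the kinase Plk2 (0.47) and Dcxr (1.41). Pmaip1 was at 9.66 CPM in Cdkn1a-high and 1.72 CPM in Cdkn1a-none cells of pool 1, and at 6.09 and 1.40 CPM in those of pool 2. Gdf15 was also low, at 3.45 and 0.79 CPM in Cdkn1a-high and Cdkn1a-none cells of pool 1, and at 5.89 and 1.11 CPM in those of pool 2. Psrc1 was at 94.5 and 34.2 CPM in Cdkn1a-high and Cdkn1a-none cells of pool 1, and at 50.3 and 21.8 CPM in those of pool 2. Ddit4l, Pmaip1, Gdf15, Tap1 and Dcxr were not among the genes tested within clusters. There 8 of 21 further targets tested rose and 0 fell, where 3.31% of genes tested rose. Among non-cycling cells 14 of 34 rose, where 4.28% of genes tested did. The count was 13 of 37 with DESeq2, 12 of 35 with another draw, 10 of 28 in drawn counts, 3 of 36 for classes at 2000 UMIs and 0 of 36 without the pool block. In these settings 464, 234, 424, 74 and 0 genes in all rose, in the same order.

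Of 12 genes for p53 and its regulators, 2 rose and 1 fell, where 5.91% of all genes rose and 4.31% fell. Cdkn2a, the source of the Mdm2 inhibitor p19Arf and of p16, was at 91.8 CPM in Cdkn1a-high and 45.2 CPM in Cdkn1a-none cells of pool 1, and at 116.3 and 59.8 CPM in those of pool 2 (log2 1.06 ± 0.10 SE, edgeR adjusted p = 0.00109). 3' counts do not separate its transcripts. Trp53, which encodes p53, was at 77.3 and 59.1 CPM in Cdkn1a-high and Cdkn1a-none cells of pool 1, and at 68.2 and 53.6 CPM in those of pool 2 (log2 0.44 ± 0.08 SE, edgeR adjusted p = 0.013). The DNA damage kinase Atr fell (log2 -0.59 ± 0.13 SE, edgeR adjusted p = 0.023), and Mdm4, the partner of Mdm2 that masks p53, had a log2 of -0.11 ± 0.09 SE and did not pass (adjusted p = 0.495 by edgeR). Of 6 CDK inhibitors other than Cdkn1a, Cdkn2a among them, 4 rose, where 5.91% of all genes did. The count was 2 of 6 with another draw, for classes at 2000 UMIs, for a high class from 3 UMIs and among non-cycling cells. Over all genes 234, 74, 362 and 507 rose there, in the same order. It was 0 of 6 without the pool block, where 0 genes rose. It was 4 of 6 with DESeq2 and for classes at 5000 UMIs (464 and 678 genes in all), and 3 of 5 within clusters (291). Cdkn2b rose by a log2 of 1.11 ± 0.07 SE (edgeR adjusted p = 0.000252) and Cdkn2d by 0.76 ± 0.12 SE (0.00896).

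Lists outside the p53 pathway also held genes that passed, with counts that moved widely with the settings. Of 30 cell cycle genes 13 rose, where 5.91% of all genes did, among them Bub1 (log2 0.90), Plk1 (1.01) and Cdk1 (0.99). Within clusters 2 of 22 tested rose, where 3.31% of all genes did. Among non-cycling cells 0 of 22 rose, where 4.28% of genes tested did. Those cells were chosen for having no drawn UMI of the 10 core cycling genes, all of which are in this list. That value therefore cannot show how the list moves with Cdkn1a. The count was 2 of 30 with another draw, 1 for classes at 2000 UMIs and 5 without the deepest 5% of cells. It was 0 both for a high class from 3 UMIs and without the pool block. In these settings 234, 74, 547, 362 and 0 genes in all rose, in the same order. The count was 12 of 30 with DESeq2 (464 genes in all), 17 for classes at 5000 UMIs (678) and 20 with clusters 9, 12, 13 and 15 left out (1094). With another draw the median log2 of the list was 0.76, against 0.67 as reported. Of 15 hypoxia genes 9 rose, among them the glycolytic Ldha (0.63) and Pgk1 (0.61) and the mitochondrial Fam162a (0.53), against 4 of 9 within clusters. The hypoxia count was 3 of 15 without cluster 2, 5 with another draw, 1 for classes at 2000 UMIs and 0 without the pool block. Over all genes 413, 234, 74 and 0 rose there, in the same order. It was 6 of 16 with DESeq2 (464 genes in all) and 12 of 14 with clusters 9, 12, 13 and 15 left out (1094). Of 11 integrated stress genes 4 rose, among them Sesn2 (0.98), which is also a p53 target, Asns (0.69) and Ddit4 (0.55), and of 10 immediate early genes 0 passed. Over all genes with a mean of at least 20 CPM, the largest rises were those of the neuropeptide precursor Vgf (log2 1.90), the annexin partner S100a10 (1.75), Anln (1.71), Hmga2 (1.54) and Hist1h1b (1.5), and the largest falls those of Neu4 (-2.07), Sema5a (-1.74), the precursor receptor Gpr17 (-1.60), Sez6l (-1.20) and Kcnmb4 (-1.18). The difference of Eda2r, the largest among the members, is smaller than each of these rises over all classed cells. Within clusters Eda2r had a log2 of 0.94, against 0.95 for S100a10, 0.85 for Hmga2, 0.71 for Vgf and 0.07 for Hist1h1b. Anln was not tested there.

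The summed level of the members followed Cdkn1a only in outline across the 13 clusters that held 20 or more cells in both pools. Both the sum and single members departed from it in places. These clusters were formed without the members, Cdkn1a and the other p53 targets, and their levels are a description. Over all kept cells Bax and Phlda3 weighed most in the sum. The sum was highest in cluster 2 of pool 1 at 1301 CPM (95% interval 1269 to 1333), closely followed by cluster 8, led by proliferation genes such as Tacc3 and Ccnb2, at 1277 CPM (1232 to 1323), whose interval overlaps. In pool 2 it was highest in cluster 14, led by the interferon genes Ifit3, Ifit1 and Isg15, at 1269 CPM (1197 to 1345), ahead of cluster 2 at 1102 CPM (1073 to 1132) with intervals apart. Cluster 14 was at 990.9 CPM in pool 1, the median of whose clusters was 989.2 CPM, and its 28 and 43 cells make it a small cluster. The sum was lowest in both pools in cluster 9, which is oligodendrocyte-like by its markers and led by Enpp6 and Mbp, at 702.8 CPM (649.0 to 759.8) and 626.2 CPM (563.2 to 694.3). Next lowest were cluster 5 in pool 1, at 765.7 CPM (740.5 to 791.6), and cluster 0 in pool 2, at 663.5 CPM (623.0 to 705.9), whose interval overlaps that of cluster 9. Cdkn1a was lowest in cluster 9 of pool 1 (35.6 CPM) and in cluster 5 of pool 2 (38.3 CPM). Cluster 11, led by histone genes such as Hist1h1b, had Cdkn1a at 303.7 CPM in pool 1, the highest there, and at 273.8 CPM in pool 2. Its sum was at 1020 CPM in pool 1 (median cluster 989.2 CPM) and at 807.1 CPM in pool 2 (854.6 CPM). In pool 2, where the median cluster had Cdkn1a at 171.1 CPM, cluster 7 had 257.4 CPM and a members' sum of 787.9 CPM. Cluster 10 of pool 2 went the other way, with 98.6 and 945.3 CPM.

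Mdm2 and Bax parted in the clusters. Cluster 0, with medians of 3147 and 2279 UMIs per cell and with Malat1 at 100100 and 124700 CPM, had the lowest Bax of the 13 clusters in both pools, at 152.7 and 110.0 CPM, where the median cluster had 373.3 and 353.2 CPM. It had the highest Mdm2, at 73.0 and 73.6 CPM against median clusters of 42.7 and 42.5 CPM, and the highest Zmat3, at 173.2 and 134.6 CPM against 94.6 and 97.6 CPM. Trp53inp1 was also highest there in pool 1, at 172.1 CPM, and at 113.3 CPM stood next to cluster 14 (116.5 CPM) in pool 2. The share of RNA that is nuclear was not measured, and the part of depth and Malat1 in these levels was not tested. With the low-depth clusters 0 and 10 left out, 7 of 8 members passed between Cdkn1a classes, where 5.2% of genes tested passed as higher, an alternative chosen after seeing the data. Cluster 9 had the second highest Mdm2, at 71.3 and 57.4 CPM, and the lowest Eda2r, at 5.57 and 6.96 CPM on 5 and 4 UMIs, and the lowest Phlda3, at 75.7 and 60.9 CPM.

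**Figure D4:**
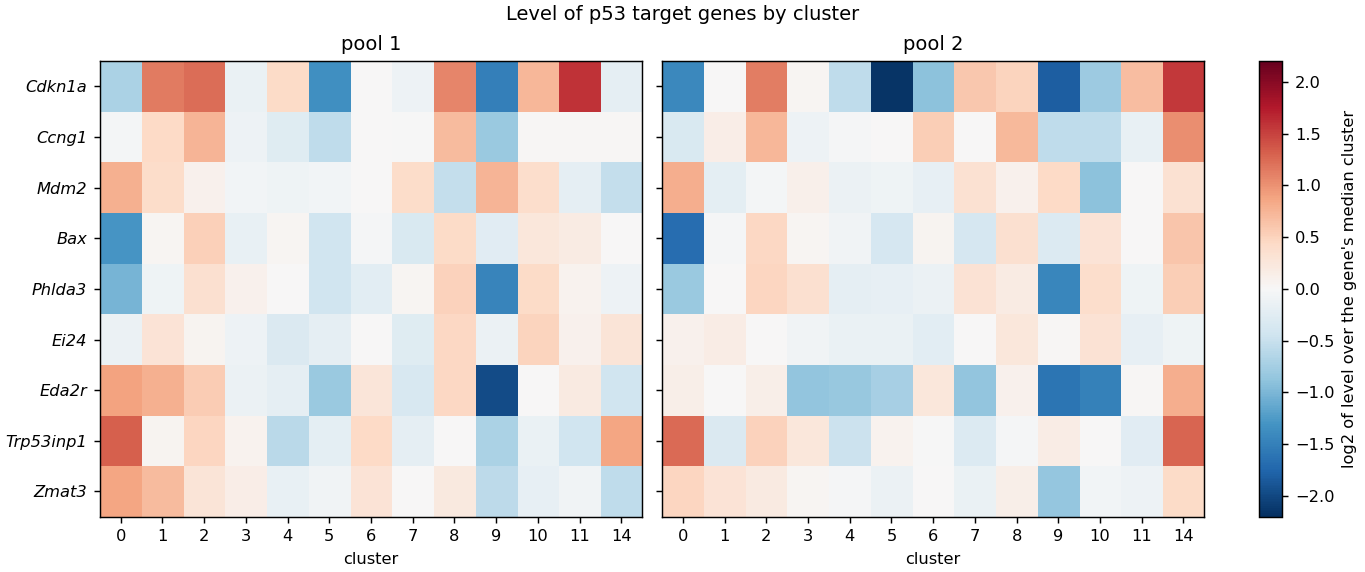
Log2 of the level of Cdkn1a and the 8 p53 target genes (rows) in each cluster of 20 or more cells per pool (columns) over the gene's median cluster, for pool 1 (left) and pool 2 (right), with red above and blue below the median. Cluster 0 is blue for Bax and red for Mdm2, Trp53inp1 and Zmat3 in both pools, and cluster 14 is red for nearly all rows in pool 2 only.

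In the smallest clusters most values rest on few UMIs. Cluster 15, which is oligodendrocyte-like and led by Apod, Mal and Mog, held 20 cells in pool 2, of which 14 were Cdkn1a-high. There Cdkn1a was at 1411 CPM (391 UMIs), against 183.5 CPM over all kept cells of the pool. The members summed to 523.4 CPM (441.7 to 615.8), below the 870.3 CPM over all kept cells. Bax was at 126.3 CPM on 35 UMIs and Ccng1 at 39.7 CPM on 11, and Eda2r had 0 of 277048 UMIs, which allows up to 10.8 CPM at a limit of 3 counts. In pool 1 the cluster held 4 cells, 0 of them Cdkn1a-high, with 2 Cdkn1a UMIs (21.7 CPM), so that its Cdkn1a level has no second library. The 8 oligodendrocyte markers, whose class differences went opposite ways in the pools, summed to 81570 CPM in this cluster over both pools. The cluster's part in those differences was not tested. The microglia-like cluster 13, of 16 and 17 cells, had a members' sum of 411.2 and 339.5 CPM and Cdkn1a at 14.7 and 20.4 CPM on 1 and 3 UMIs, and the astrocyte-like cluster 12, of 8 cells in each pool, had sums of 568.1 and 534.9 CPM and Cdkn1a at 108.2 and 48.6 CPM on 8 and 3 UMIs. In both clusters Cdkn1a and the members' sum were below their levels over all kept cells. With the named clusters 9, 12, 13 and 15 left out, all 8 members passed between classes, where 8.51% of genes tested passed as higher.

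In single cells, detecting one member went with slightly more UMIs of another in a majority of pairs, but not for every member. For each member, cells of the 3000-UMI draw were divided into those with and those without its UMI, and the UMIs per cell of each other member were compared. Of the 56 ordered pairs, 33 had a log2 ratio above 0 in both pools and 4 below 0 in both, with a median of 0.16 in each pool, and in a draw of 5000 UMIs 40 were above and 3 below 0 in both. Divided by Cdkn1a in the same way, all 8 members lay above 0 in both pools, as did 27.2% of 10261 genes with enough UMIs. For splits by a member the number of other members above 0 in both pools ran from 3 of 7 for Bax and Zmat3 to 5 of 7 for Mdm2, Ei24 and Eda2r, where 28.5%, 35.6%, 32.8%, 28.1% and 30.7% of genes were. Sparse counts make such ratios small and uncertain, and they have no test.

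By the lower ratio of the 2 pools, the highest pair in the draw of 3000 was Eda2r with Trp53inp1. Split by Trp53inp1, Eda2r had a log2 ratio of 1.06 in pool 1 (76 UMIs in 587 cells with it, 134 in 2155 without) and of 1.0 in pool 2 (32 in 388 with it, 93 in 2232 without). Split the other way round, by Eda2r, Trp53inp1 had 0.91 and 0.83, and in the draw of 5000 these values were 0.79 and 0.75 (split by Trp53inp1) and 0.72 and 0.8 (split by Eda2r). Eda2r and Ccng1 were far apart between pools in the draw of 3000, with Eda2r at -0.09 in pool 1 (32 UMIs in 446 cells with Ccng1, 178 in 2296 without) and at 1.61 in pool 2 (38 in 331 with it, 87 in 2289 without). In the draw of 5000, which is a new draw and holds fewer cells, the same ratios were 0.64 and 1.03. Zmat3 and Bax lay near 0 or below with each other, with ratios from -0.24 to 0.05.

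**Figure D5:**
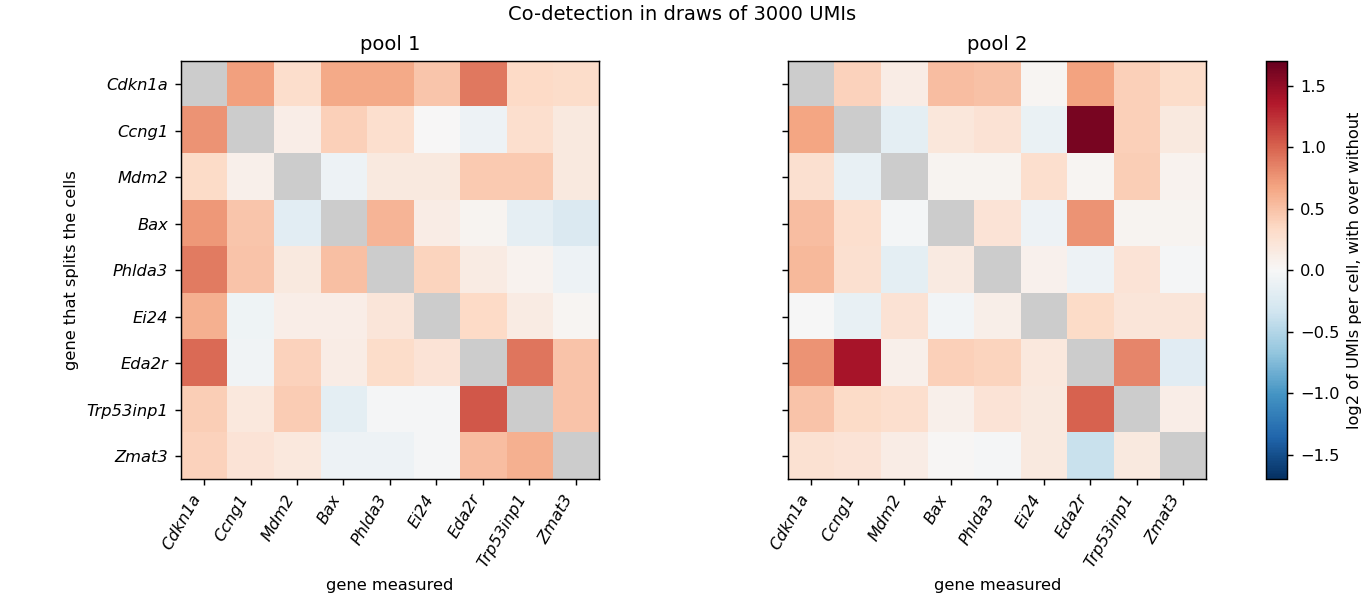
Log2 ratio of UMIs per cell of each gene (columns) in cells with over cells without a UMI of the gene that splits them (rows), in draws of 3000 UMIs, for pool 1 (left) and pool 2 (right), with red above and blue below 0. The row and column of Cdkn1a are red in nearly all cells of both panels, Eda2r and Trp53inp1 are red together in both pools, and Eda2r and Ccng1 are red in pool 2 and near 0 in pool 1.

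The genes whose level over the 13 clusters was most like the members' sum, by the lower of the 2 pools' Pearson r among 7397 genes other than the members and the 37 further p53 targets, were S100a10 (0.926 and 0.914 in pools 1 and 2), Tnfrsf12a, a receptor of the tumour necrosis factor family (0.947 and 0.894), the galectin Lgals1 (0.863 and 0.901), Cdkn2a (0.859 and 0.842) and Cdkn1a itself (0.873 and 0.794). The 13 points of a pool share 1 library and differ in depth, so these values describe likeness only.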

How the data were processed

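Per the labels, 4000 sorted cells of each pool entered 10x Genomics 3' single-cell RNA sequencing (version 3.1). The authors deposited unnormalized UMI counts for every gene in every barcode (33.9 M and 40.9 M UMIs in 3843 and 3650 barcodes), made from the reads with Cell Ranger 6.0.2, as the submitters' processing notes state together with GRCm38 and mm10. The sources used here do not give the cell filters behind the tables. Intervals cover counting error only. The 3000-UMI draws, sums and clusters (scanpy 1.11.5, 1000 variable genes, 30 components, 15 neighbours, Leiden 0.8) were made in Python 3.11.15. Doublets were not removed. Clusters were named from marker lists where at least 2 own markers stood in the top 10 genes, a limit set after seeing the clusters. Counts were summed by pool and class and tested with edgeR 4.0.16 (R 4.3.3, TMM, filterByExpr, without Cdkn1a) at an adjusted p of 0.05. DESeq2 1.42.0 and other scalings, filters, depths, draws and cell sets were alternatives. The method was tested on simulated data.

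The members and lists were chosen with earlier results of these data known. Named genes were, besides the members, up to 10 per p53 list and 3 per other list by smallest p among those past the threshold, Trp53 and Mdm4 in any case, the 5 largest rises and falls at a mean of at least 20 CPM with the same direction in both pools, and the 5 genes most like the members over clusters. Genes that lead a cluster are named as its description.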

Additional observations from a re-analysis of the deposited data

How the results depend on the processing

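Under 18 alternatives with a test and with each pool alone, all 160 values of the members lay above 0, and 0 reversed. Ccng1, Bax, Phlda3, Eda2r and Trp53inp1 each passed in 17 of the 18 and Zmat3 in 16, while Ei24 passed in 13 and Mdm2 in 5. The exception common to all was the fit without the pool as a replicate block, in which 0 genes passed as higher, 0 as lower and 0 members (smallest adjusted p 0.16 by edgeR), with 1427 genes and 7 members at an unadjusted p under 0.05. The numbers are paired by construction, since the sums of a pool come from its cells. Ei24 also missed the threshold (edgeR adjusted p) at 2000 UMIs (0.279), in drawn counts (0.101), with another draw (0.0717) and without cluster 2 (0.0637), and Zmat3 at 2000 UMIs (0.0858). In pool 1 alone and pool 2 alone, without a test, the log2 of Ei24 was 0.58 and 0.27 and that of Mdm2 0.58 and 0.24.

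Genes passing as higher and as lower, 766 and 559 as reported, were 464 and 204 with DESeq2 (458 of the higher genes shared), 424 and 245 in drawn counts, 507 and 364 among non-cycling cells, 291 and 112 with pool and cluster as the block (267 shared), 234 and 261 with another draw (210 shared) and 74 and 70 with classes at 2000 UMIs. With library size alone they were 531 and 871, so that 37.9% of calls were higher against 57.8% as reported, with the median of all genes at -0.08 on the log2 scale. The members passing were 7 with DESeq2, with library size alone and without a filter, 6 in drawn counts and with another draw, 5 at 2000 UMIs and 8 at 5000 UMIs. Of the alternatives chosen after seeing the data, leaving out cluster 2 gave 413 and 265 genes with 6 members, and a high class from 3 UMIs gave 362 and 240 with 8 members. Leaving out cluster 8, cluster 14, or clusters 0 and 10 kept 7. A high class of at most 10% of cells gave the same classes and no separate value. Where counts moved, the cause was not tested. Differences of members with few UMIs, such as Eda2r, are limited by depth.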
